A study of Mus musculus with 5 samples.

Results

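The WNT ligands, their receptors and their secreted antagonists were examined in mouse neural stem cells (NSCs) and in STO fibroblasts. Members were taken by gene symbol: every Wnt, Frizzled, Sfrp1 to Sfrp5 and Dkk1 to Dkk4 gene, the co-receptors Lrp5, Lrp6, Ror1 and Ror2, the inhibitor Wif1, the target Axin2 and the nuclear factors Lef1 and Tcf7. By this rule 45 of the 24844 genes of the expression files were members, 19 of them ligands, 10 Frizzled receptors, 4 co-receptors, 9 secreted antagonists and 3 feedback or nuclear genes. The rule uses no measured value.

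The NSCs were primary cells from the cortex of E12.5 mouse embryos, grown as a monolayer on poly-ornithine and laminin in neurobasal medium with EGF, bFGF, heparin and B27, and used at passages 5 to 8. STO is an established line of SIM mouse embryonic fibroblasts resistant to thioguanine and ouabain, grown in DMEM with serum and used after more than 30 passages. Both were labelled as strain C57BL/6 with no transgene or treatment, and 2 NSC and 3 STO samples were sequenced. Cell type, medium, matrix and passage changed together between the groups and cannot be told apart, STO cells stand for a single line, and nothing in the labels says that the samples of a group were separate cultures, so the p-values measure only the spread between these samples.

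Wnt proteins are secreted, lipid-modified signals that bind Frizzled receptors on the cell surface. With the co-receptors Lrp5 and Lrp6 they stabilise beta-catenin, which acts with factors of the TCF/LEF family on target genes such as Axin2, and with Ror1, Ror2 and other partners they act on cell polarity and movement without beta-catenin. In the embryonic cortex the pathway is known for its part in the growth and fate of neural progenitors, and Wnt7a and Wnt7b made by neural cells are known to act on growing brain vessels.

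Levels are in FPKM (fragments per kilobase of transcript, scaled by the authors to sequencing depth), a scale per length on which genes of a sample can be set side by side, and transcripts of a symbol were summed. The deposited intervals imply 20587283 and 22271895 fragments for the NSC replicates and 15223341, 17078753 and 21952753 for the STO replicates, and replicates of a cell type correlated across genes with Pearson r from 0.994 to 0.996. The labels were checked with markers. Among the NSC markers, Nes was at 176 and 169 FPKM, Sox2 at 308 and 276, Olig2 at 499 and 493 and Pax6 at 5.04 and 5.22 in the NSC replicates, and in STO cells Nes was at 0.038 to 0.072 and the other 3 were listed at 0. The 7 fibroblast markers summed to 0.961 to 1.32 in NSCs and to 1159 to 1228 in STO cells, with Col3a1 and Dcn listed at 0 in both NSC samples.

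Most markers listed for other neural cells moved with the NSC group. The test given below called 43.7% of all genes higher in NSCs, so counts of markers alone say little. All 4 astrocyte markers were higher in NSCs, summing to 309 to 313 FPKM against 24.8 to 26.7. Most of that NSC sum was Slc1a3 (mean 247 FPKM) and Aldh1l1 (46.4), with Gfap at 16.4 and Aqp4 at 1.72. Of the 4 oligodendrocyte markers 3 were higher, the list summing to 123 to 127 against 0.977 to 1.14, with Mbp at 85.8 FPKM in NSCs. Of the 6 neuron markers 3 were tested, and 2 were higher in NSCs, Map2 and Dcx. Tubb3, at a mean of 8.69 FPKM in NSCs and 8.30 in STO cells, was not past the test. The list summed to 115 FPKM in each NSC sample, most of it Map2 at a mean of 101, and to 12.3 to 12.8 in STO cells. Stmn2 and Neurod6 were near or below 0.1 FPKM in every sample. The microglial, endothelial and choroid plexus or hem lists, each of 4 genes, summed to between 0.048 and 0.534 FPKM in every sample, with the hem gene Lmx1a listed at 0 throughout. The part of astrocyte-like and oligodendrocyte-like RNA in the values below was not tested, and in bulk RNA fewer cells of a type cannot be told apart from less RNA per cell.

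Of the 45 members, 28 had a mean of at least 1 FPKM in NSCs or in STO cells and entered the test, 24 of them at that level in NSCs, 17 in STO cells and 13 in both. The filter favours members that are high in 1 cell type, so these counts describe the genes and support nothing. With limma on log2(FPKM + 1) and a Benjamini-Hochberg adjusted p under 0.05 over all 12278 genes tested, 14 members were higher in NSCs and 13 in STO cells. The same test called 43.7% of all genes higher in NSCs, 41.9% higher in STO cells and 85.7% in either direction, so the number of calls is close to the background. Values of the 2 cell types did not overlap in 27 of the 28 members, against 90.0% of all genes tested.

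The sizes of the differences were set beside the background in the same way. With an absolute log2 difference of at least 1 also required, 21 of the 28 members were called, 13 higher in NSCs (21.3% of all genes) and 8 in STO cells (17.1% of all genes). In either direction the share was 75% of the members and 38.4% of all genes. The median absolute difference was 1.89 for the members and 0.74 for all genes on the log2(FPKM + 1) scale. The filter favours members that are high in 1 cell type here too, so these sizes describe the genes and support nothing. All genes passed the same filter, but how many entered through 1 cell type alone was not compared. A log2 difference on this scale understates the change of low genes, and for a gene listed at 0 in a cell type it follows from the other level and the pseudocount of 1 alone.

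**Figure D1:**
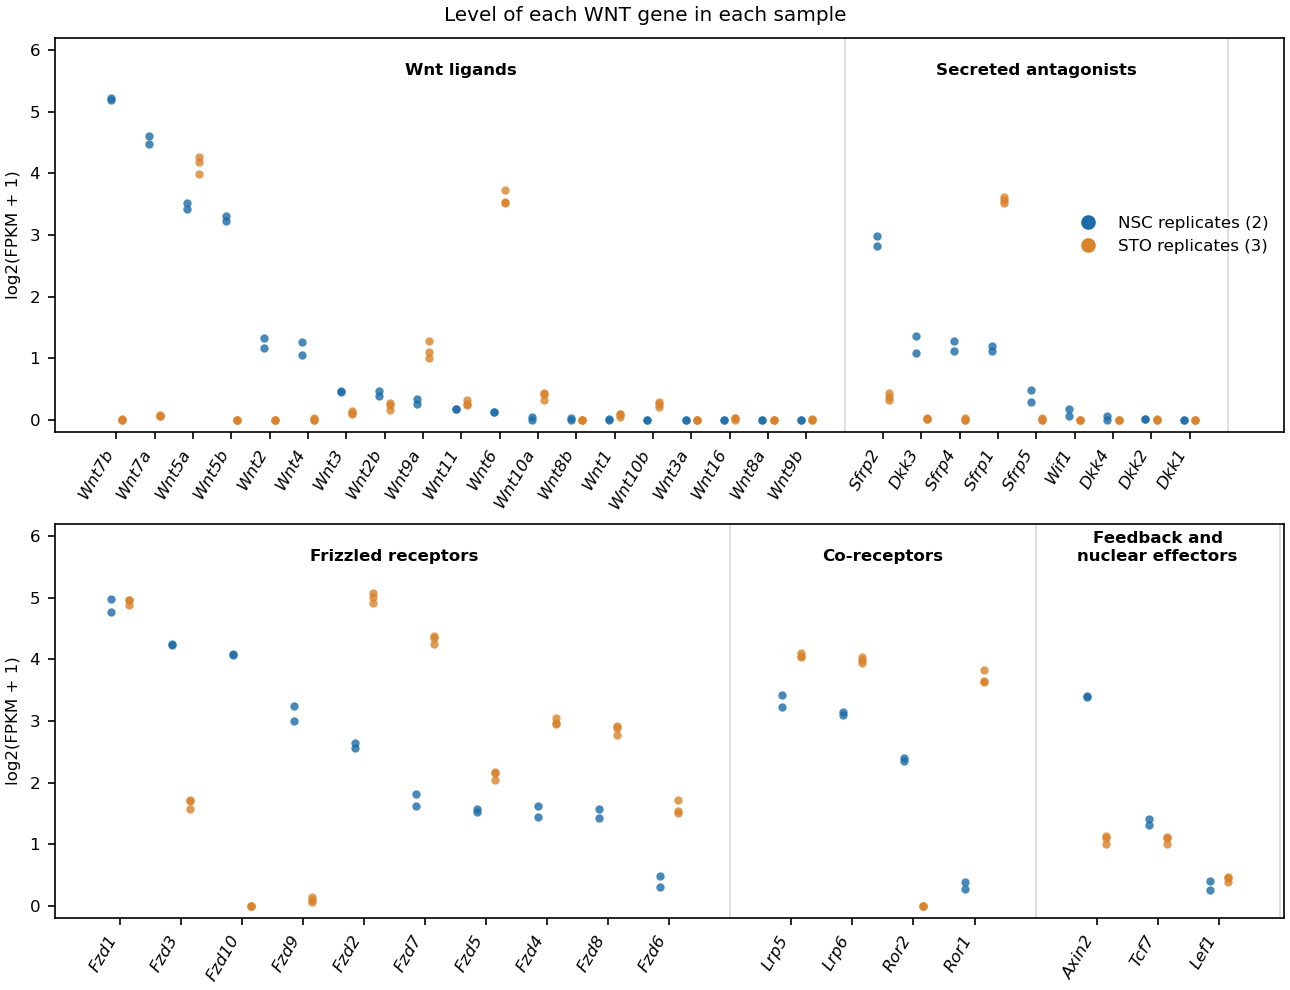
Level of each of the 45 WNT genes as log2(FPKM + 1) on the vertical axis, 1 point per sample (NSC blue, n = 2; STO orange, n = 3), genes ordered by mean NSC level within each role. Wnt7b and Wnt7a stand high in NSCs and near 0 in STO cells, Wnt6, Sfrp1 and Ror1 show the opposite, and the points of Fzd1 lie together.

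Among the ligands, Wnt7b and Wnt7a led in NSCs and Wnt5a and Wnt6 in STO cells. Wnt7b (chr15:85365867-85412251 of the mm9 build) was at 35.7 and 36.2 FPKM in NSC replicates 1 and 2 and at 0.013, 0 and 0 in STO replicates 1, 2 and 3. Wnt7a (chr6:91313977-91361363), the closest relative of Wnt7b, was at 23.2 and 21.3 FPKM in NSCs and at 0.042, 0.061 and 0.046 in STO cells, where the values rest on 3, 5 and 5 implied fragments. Both genes were high in both NSC samples and near the level of 3 fragments or below it in every STO sample. The differences, NSC minus STO, were 5.20 (SE 0.047, adjusted p 4.6e-09) for Wnt7b and 4.47 (SE 0.056, adjusted p 8.0e-09) for Wnt7a.

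Wnt5b, a ligand mostly tied to signalling without beta-catenin, was at 8.36 and 8.88 FPKM in NSCs and listed at 0 in all 3 STO samples. Wnt2 was at 1.52 and 1.24 FPKM in NSCs and listed at 0 in STO cells, where 3 fragments would have given 0.042 to 0.063 FPKM. Wnt4 was at 1.08 and 1.39 FPKM in NSCs and at 0, 0 and 0.023 in STO cells. All 3 were separated from STO cells in both NSC samples, with differences of 3.26 (adjusted p 1.3e-08), 1.25 (adjusted p 2.6e-06) and 1.15 (adjusted p 6.5e-06) in that order. With quantile normalization Wnt2 and Wnt4 still passed the test, but by 0.72 and 0.44. Floors and intervals from fragments cover counting error only, an exact 0 can also be a failed estimate, and no transcript of a member carried a failed status.

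Wnt6 (chr1:74818466-74831893) was the ligand with the largest difference towards STO cells. It was at 0.092 and 0.098 FPKM in NSCs, from 6 and 7 implied fragments, and at 12.3, 10.4 and 10.6 in STO cells. The STO mean of 11.1 ± 1.03 (SD, n = 3) was 117 times the NSC mean of 0.095 ± 0.0042 (SD, n = 2), a log2 difference of -3.47 (SE 0.079, adjusted p 8.0e-08). Wnt9a was at 0.201 and 0.271 FPKM in NSCs and at 1.43, 1.01 and 1.14 in STO cells, a 5.06-fold higher mean in STO cells (log2 difference -0.82, adjusted p 0.00013).

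Wnt5a (chr14:29318659-29340633), the best known ligand of the branch without beta-catenin, was the 1 ligand above 1 FPKM in both cell types. It was at 9.71 and 10.5 FPKM in NSCs and at 17.1, 18.2 and 14.9 in STO cells, so that every STO sample lay above both NSC samples. The STO mean was 1.66 times the NSC mean (log2 difference -0.67, SE 0.092, adjusted p 0.00052). This call was lost when only the highest transcript of each gene was kept, with a difference of -0.02 and an adjusted p of 0.81, against adjusted p from 0.00017 to 0.025 under the other alternatives.

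The 11 ligands under 1 FPKM in both cell types reached at most 0.390 FPKM in any sample. Wnt3a and Wnt8a were listed at 0 in all 5 samples, and Wnt1, Wnt8b, Wnt9b and Wnt16 stayed under 0.1 FPKM. Among those with a sample at 0.1 FPKM or more, Wnt3 was at 0.388 and 0.373 in NSCs and at 0.071 to 0.112 in STO cells, and Wnt2b was at 0.311 and 0.390 against 0.119 to 0.211. Wnt10a was at 0 and 0.030 in NSCs and at 0.256 to 0.362 in STO cells, Wnt10b at 0 and 0 against 0.157 to 0.219, and Wnt11 at 0.127 and 0.136 against 0.178 to 0.255. None of the 11 was tested.

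Several ligand genes lie side by side in mm9. Wnt6 and Wnt10a are 6699 bases apart on chromosome 1, and both had their higher mean in STO cells, Wnt10a at a low level. Wnt10b and Wnt1 are 11706 bases apart on chromosome 15, and both also had their higher mean in STO cells. Those STO means were low, 0.189 and 0.060 FPKM, and neither gene was tested. On chromosome 11, Wnt3a and Wnt9a are 16178 bases apart and Wnt9b and Wnt3 24353 bases. In the Wnt3a and Wnt9a pair only Wnt9a was above 0, and in the Wnt9b and Wnt3 pair Wnt3 was the gene above 0.01 FPKM.

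The summed ligand level was 80.8 ± 0.067 FPKM in NSCs (SD, n = 2) and 30.2 ± 2.2 in STO cells (SD, n = 3). In NSCs Wnt7b held 44.5% ± 0.389 of that sum, Wnt7a 27.6% ± 1.71, Wnt5a 12.5% ± 0.675 and Wnt5b 10.7% ± 0.446. In STO cells Wnt5a held 55.5% ± 3.49 and Wnt6 36.9% ± 2.45. These shares depend on how transcripts are summed: with the highest transcript alone, Wnt6 held 47.0% and Wnt5a 43.4% of the STO sum, so their order turned.

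**Figure D2:**
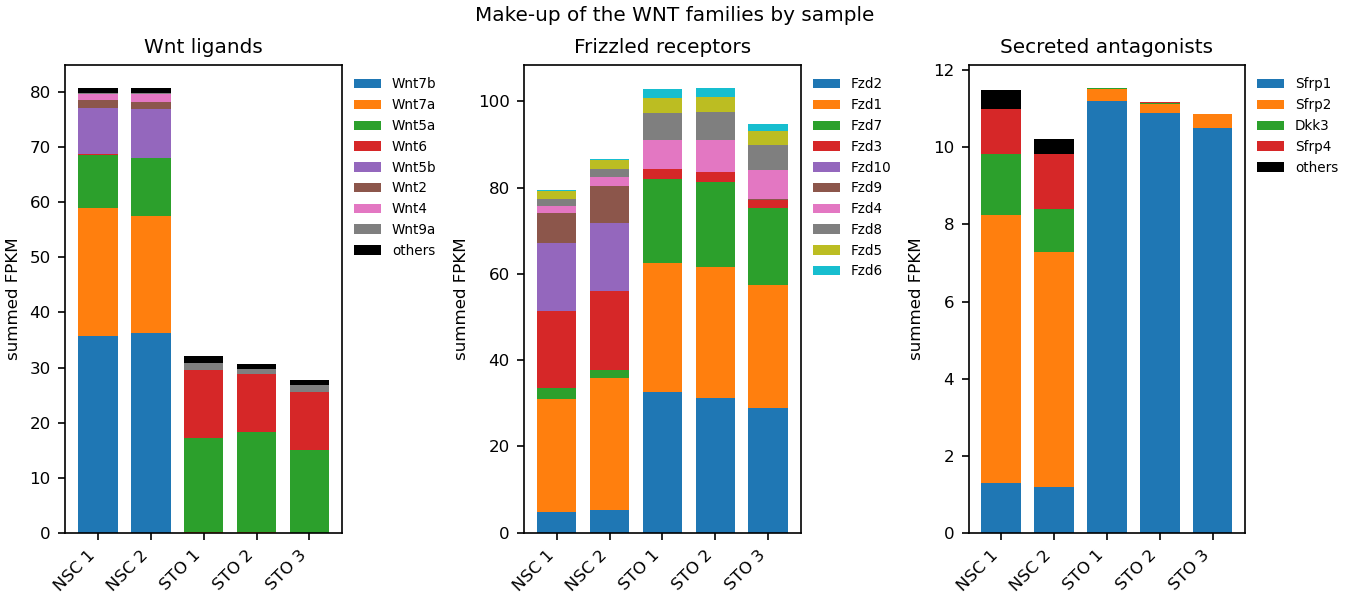
Summed FPKM (vertical axis, from 0) of the Wnt ligands, the Frizzled receptors and the secreted antagonists in each sample, stacked by gene. The ligand sum is higher in NSCs and made mostly of Wnt7b and Wnt7a, while Frizzled and antagonist sums are nearer to each other and made of different genes.

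Wnt5a and Wnt7b each had more than 1 transcript with a value, and the transcripts start at different places. The Wnt5a transcript that starts upstream, at position 29318659 of chromosome 14, was at 9.71 and 10.5 FPKM in NSCs and at 10.5, 9.75 and 10.5 in STO cells. The transcript that starts 5932 bases downstream, at position 29324591, was listed at 0 in both NSC samples and was at 6.64, 8.48 and 4.38 FPKM in STO cells. The upstream values overlapped and the downstream values did not. In a fit of single transcripts, chosen after the data were seen and calling 77.1% of 16257 transcripts, the upstream transcript differed by -0.02 (SE 0.061, adjusted p 0.80) and the downstream transcript by -2.87 (SE 0.26, adjusted p 0.00045).

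The downstream start is that of the GENCODE transcript Wnt5a-002, whose first exon spans only positions 29324591 to 29324609. Its later exons start where those of Wnt5a-001 do. Its last exon ends at 29338620, whereas Wnt5a-001 and both deposited transcripts end at 29340633. The first exon of Wnt5a-003, from 29324576 to 29325142, covers the same bases. If the deposited downstream transcript has the short first exon, few bases belong to it alone. The split between the transcripts then rests on them and on the upstream first exon. Exons of Wnt5a also share 358 bases with the antisense gene Gm2670, and the strand setting of the counting is not given in the sources used here. Antisense genes also share exon bases with Wnt11 (364), Sfrp2 (347), Axin2 (209) and Wnt7b (38), and of these partners only that of Wnt7b, AU022754, was listed, at 0 in all samples. Reads from such a pair cannot be told apart without strand.

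For Wnt7b, on the minus strand, the transcript that starts at position 85408500 of chromosome 15 was at 28.9 and 29.8 FPKM in NSCs and listed at 0 in STO cells. The transcript that starts upstream of it, at position 85412251, was at 6.83 and 6.36 FPKM in NSCs and at 0.013, 0 and 0 in STO cells. The downstream start held 80.9% and 82.4% of the gene in NSC replicates 1 and 2, and an additional transcript was listed at 0 in every sample. These transcripts overlap along most of the gene, so the split is an estimate, as for Wnt5a.

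**Figure D3:**
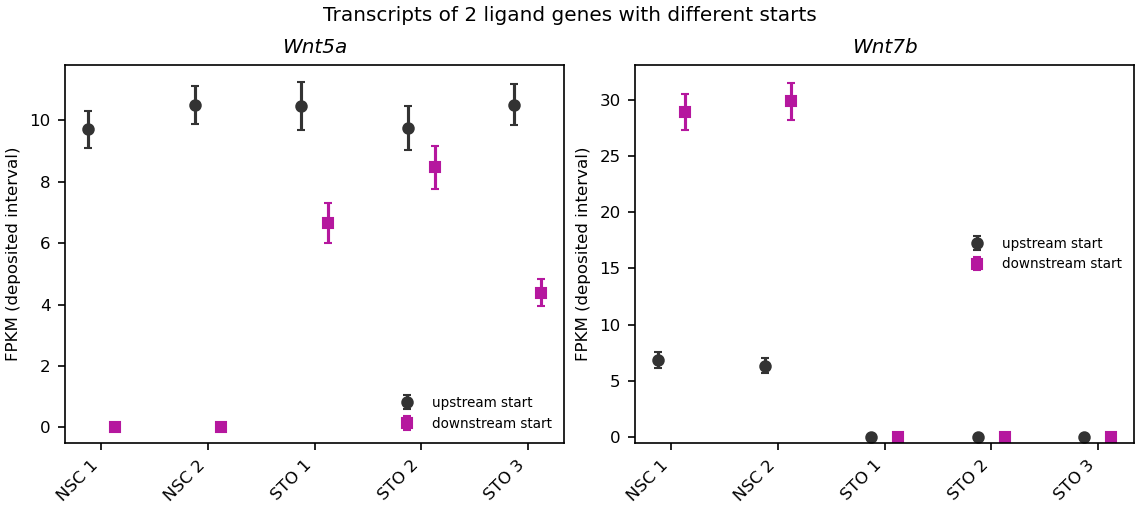
FPKM of the Wnt5a and Wnt7b transcripts by sample, circles for the upstream and squares for the downstream start, bars for the deposited interval. The downstream Wnt5a transcript is listed at 0 in both NSC samples and lies between 4.38 and 8.48 in STO cells, and the downstream Wnt7b transcript exceeds the upstream one in both NSC samples; the Wnt7b transcript listed at 0 throughout is not drawn.

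The 300 bases before the start are shown for Wnt7a, Wnt6 and the Wnt7b transcript with the higher estimated level in NSCs. These ligands set the 2 cell types apart. Windows were read from mm9 with the base next to the start last. Capitals mark the GC box (GGGCGG, or CCGCCC on the other strand), a promoter motif bound by Sp family factors.
Wnt7a, chr6:91361364-91361663, minus strand: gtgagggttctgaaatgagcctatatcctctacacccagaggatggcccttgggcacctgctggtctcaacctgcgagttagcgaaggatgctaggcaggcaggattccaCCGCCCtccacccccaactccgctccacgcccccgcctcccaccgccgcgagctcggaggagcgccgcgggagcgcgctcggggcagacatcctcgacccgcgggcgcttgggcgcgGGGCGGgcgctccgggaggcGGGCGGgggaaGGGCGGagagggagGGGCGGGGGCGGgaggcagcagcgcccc
Wnt7b downstream start, chr15:85408501-85408800, minus strand: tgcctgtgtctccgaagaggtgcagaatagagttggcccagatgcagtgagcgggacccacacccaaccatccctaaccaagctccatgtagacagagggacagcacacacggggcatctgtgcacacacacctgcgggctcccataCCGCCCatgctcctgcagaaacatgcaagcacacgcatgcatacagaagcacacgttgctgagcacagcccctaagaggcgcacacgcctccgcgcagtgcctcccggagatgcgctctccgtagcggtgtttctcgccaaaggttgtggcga
Wnt6, chr1:74818166-74818465, plus strand: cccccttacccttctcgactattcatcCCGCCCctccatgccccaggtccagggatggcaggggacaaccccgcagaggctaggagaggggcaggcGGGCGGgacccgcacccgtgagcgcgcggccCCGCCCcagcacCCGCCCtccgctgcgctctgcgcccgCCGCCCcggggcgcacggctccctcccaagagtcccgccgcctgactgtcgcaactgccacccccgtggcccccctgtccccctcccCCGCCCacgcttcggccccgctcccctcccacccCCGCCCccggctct

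Wnt6 and Wnt7a, high in opposite cell types, both carried several GC boxes, 2 of them adjoining in Wnt7a, while the Wnt7b window, which lies inside the gene, held 1.

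Across all 56 starts of the 45 members, 38 windows (67.9%) held a GC box, against 44.6% of the 23718 windows of all placed starts. The TCF/LEF core (CTTTGA, or TCAAAG) was found in 8 member windows (14.3%) and in 15.1% of all windows, and TATAAA (or TTTATA) in 14.3% and 13.2%. The median GC content was 64.2% in member windows and 55% in all, and the median ratio of observed to expected CpG was 0.69 and 0.52. None of these 3 windows held the TCF/LEF core. Starts of a gene can overlap, these letters are matches and not sites, and no match speaks only of this window.

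Of the 10 Frizzled receptors, Fzd10, Fzd9 and Fzd3 were higher in NSCs (30%, against 43.7% of all genes). Fzd10 (chr5:129106981-129109968) was at 15.8 and 15.9 FPKM in NSCs and listed at 0 in all STO samples, where 3 fragments would have given 0.030 to 0.045 FPKM (difference 4.08, SE 0.045, adjusted p 5.7e-09). Fzd9 was at 6.96 and 8.43 FPKM in NSCs and at 0.063, 0.110 and 0.041 in STO cells (difference 3.02, adjusted p 1.8e-07). Fzd10 and Fzd9 were thus at 0 or at a few fragments in STO cells. Fzd3, which guides axon growth and neural tube closure, was at 17.7 and 18.1 FPKM in NSCs and at 2.27, 2.27 and 1.97 in STO cells, 8.27-fold higher in NSCs (difference 2.58, adjusted p 1.3e-07).

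A further 6 Frizzled genes were higher in STO cells (60%, against 41.9% of all genes). They were led by Fzd7 and Fzd2, receptors known from many dividing embryonic cells. Fzd7 was at 2.52 and 2.08 FPKM in NSCs and at 19.3, 19.8 and 17.9 in STO cells, 8.27-fold higher in STO cells (difference -2.60, adjusted p 3.3e-07). Fzd2 was at 4.89 and 5.26 FPKM in NSCs and at 32.6, 31.3 and 29.0 in STO cells, 6.10-fold higher (difference -2.39, adjusted p 2.3e-07). Both were still above 2 FPKM in both NSC samples.

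Fzd4, the receptor that also binds Norrin, was at 1.71 and 2.08 FPKM in NSCs and at 6.72, 7.31 and 6.8 in STO cells (difference -1.46, adjusted p 3.9e-06). Fzd8 was at 1.68 and 1.98 FPKM against 6.4, 6.52 and 5.81 (difference -1.36, adjusted p 5.4e-06), and Fzd6 at 0.234 and 0.405 against 1.89, 2.29 and 1.82 (difference -1.19, adjusted p 2.8e-05). The 3 genes were separated by cell type in every sample. Fzd5 was at 1.87 and 1.99 FPKM in NSCs and at 3.48, 3.45 and 3.13 in STO cells (difference -0.57, adjusted p 0.00013). Its 2 transcripts share 1 locus and were split unevenly between replicates, and with the highest transcript alone the call was lost (difference -0.44, adjusted p 0.13, against 1.4e-05 to 0.0057 under the other alternatives).

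Fzd1 was the 1 tested member that did not pass the test. It was at 26.1 and 30.5 FPKM in NSCs and at 30.0, 30.2 and 28.4 in STO cells, with overlapping groups. The difference was -0.06 with a 95% interval from -0.25 to 0.12 (adjusted p 0.46). Scaled to the same total FPKM in every sample it was -0.24 and passed (adjusted p 0.033), and without NSC replicate 1 it turned to 0.04 (adjusted p 0.48), the other alternatives giving adjusted p from 0.057 to 0.64. That scaling moved the median difference of all genes from 0.02 to -0.12.

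The Frizzled sum was 83.1 ± 5.10 FPKM in NSCs (SD, n = 2) and 100.3 ± 4.71 in STO cells (SD, n = 3). Fzd1 held 34.0% ± 1.63 of it in NSCs and 29.5% ± 0.389 in STO cells. In NSCs Fzd3 with 21.6% and Fzd10 with 19.1% came next. In STO cells Fzd2 led with 30.8% and Fzd7 held 18.9%. Fzd2 was above Fzd1 within each of the 3 STO samples, by a small margin, while their FPKM values overlapped between samples.

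**Figure D4:**
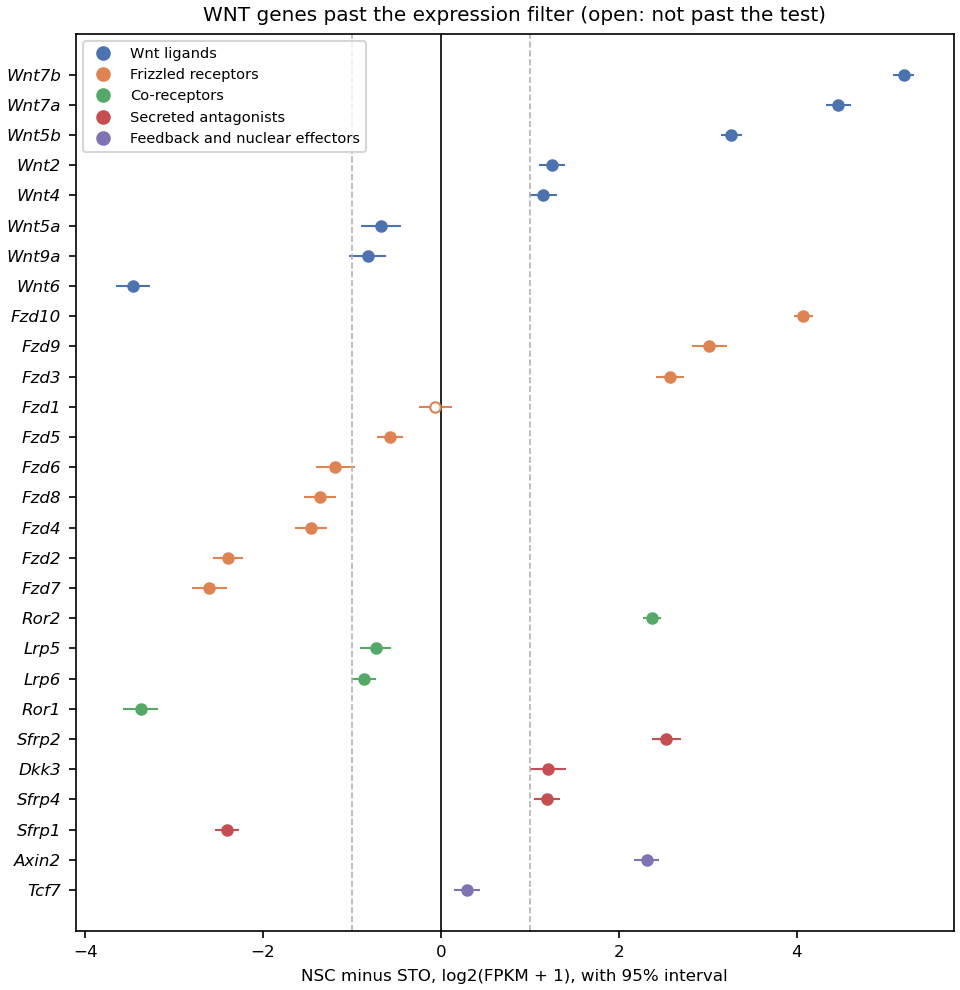
Difference of each of the 28 tested WNT genes, NSC minus STO in log2(FPKM + 1), with its 95% interval from limma, coloured by role; dashed lines mark 1 and -1 and the open point did not pass the test. Members of the same role lie on both sides of 0 among ligands, Frizzled receptors, co-receptors and antagonists.

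The 4 co-receptors divided into a pair that was shared and a pair that was exchanged. Lrp5 was at 9.74 and 8.37 FPKM in NSCs and at 15.6, 16.1 and 15.3 in STO cells (1.73-fold higher in STO cells, difference -0.74, adjusted p 0.00010). Lrp6 was at 7.79 and 7.58 FPKM in NSCs and at 14.8, 15.3 and 14.3 in STO cells (1.93-fold, difference -0.86, adjusted p 1.1e-05). Both co-receptors of the beta-catenin branch were thus above 7 FPKM in all samples and higher in every STO sample.

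Ror1 and Ror2 are receptor tyrosine kinases known to bind Wnt5a. Ror1 was at 0.203 and 0.305 FPKM in NSCs and at 11.4, 13.2 and 11.5 in STO cells, 47.4-fold higher in STO cells (difference -3.38, SE 0.080, adjusted p 9.9e-08). Ror2 was at 4.09 and 4.25 FPKM in NSCs and listed at 0 in the 3 STO samples, where 3 fragments would have given 0.023 to 0.034 FPKM (difference 2.37, SE 0.042, adjusted p 2.8e-08). Ror1 was low and Ror2 present in both NSC samples, and every STO sample showed the opposite. The co-receptor sum was 21.2 ± 0.937 FPKM in NSCs and 42.6 ± 1.85 in STO cells.

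Among the secreted antagonists, Sfrp1 stood high in STO cells and Sfrp2 in NSCs. The Sfrp proteins carry a Frizzled-like domain that binds Wnt. Sfrp1 was at 1.29 and 1.18 FPKM in NSCs and at 11.2, 10.9 and 10.5 in STO cells, 8.78-fold higher in STO cells (difference -2.41, SE 0.057, adjusted p 9.6e-08). Sfrp2 was at 6.94 and 6.09 FPKM in NSCs and at 0.288, 0.251 and 0.349 in STO cells, 22.0-fold higher in NSCs (difference 2.53, SE 0.067, adjusted p 1.7e-07). Neither gene overlapped between the cell types.

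Sfrp4 was at 1.18 and 1.44 FPKM in NSCs and at 0, 0.022 and 0 in STO cells (difference 1.19, adjusted p 3.0e-06). Dkk3, a divergent relative of the Lrp5 and Lrp6 inhibitors of the Dkk family, was at 1.58 and 1.12 FPKM in NSCs and at 0.026, 0.012 and 0.0087 in STO cells (difference 1.20, adjusted p 1.8e-05). Both were present in NSCs at a low level and near 0 in STO cells. With quantile normalization the differences of Sfrp4 and Dkk3 were 0.50 and 0.41, still past the test. The other 5 did not enter the test: Sfrp5 was at 0.402 and 0.229 FPKM in NSCs against 0.023, 0 and 0, Wif1, which binds Wnt proteins directly, at 0.043 and 0.129 against 0 in all STO samples, Dkk2 and Dkk4 were under 0.1 FPKM, and Dkk1 was listed at 0 in all 5 samples.

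The antagonist sums were close, 10.9 ± 0.913 FPKM in NSCs (SD, n = 2) and 11.2 ± 0.341 in STO cells (SD, n = 3). In STO cells Sfrp1 made up 97.1% ± 0.406 of the sum. In NSCs Sfrp2 held 60.1% ± 0.503, Dkk3 12.4%, Sfrp4 12.2% and Sfrp1 11.4%, and the last 3 overlapped in level between the NSC samples.

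Axin2, a scaffold of beta-catenin breakdown and a widely used target gene of the beta-catenin branch, was at 9.51 and 9.54 FPKM in NSCs and at 1.01, 1.20 and 1.15 in STO cells. The NSC mean of 9.53 ± 0.016 (SD, n = 2) was 8.50 times the STO mean of 1.12 ± 0.099 (SD, n = 3), a difference of 2.31 (SE 0.059, adjusted p 1.4e-07). Tcf7 was at 1.49 and 1.65 FPKM in NSCs and at 1.14, 1.18 and 0.993 in STO cells (difference 0.29, adjusted p 0.0039). Its direction turned under quantile normalization, to -0.26 (adjusted p 0.017), against adjusted p from 0.0049 to 0.038 under the other alternatives, all towards NSCs. Lef1 was at 0.327 and 0.198 FPKM in NSCs and at 0.303, 0.382 and 0.368 in STO cells, overlapped and was not tested.

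The 300 bases before the Axin2 start are shown because Axin2 is the member known best as a readout of TCF/LEF factors, again with GC boxes in capitals.
Axin2, chr11:108781363-108781662, plus strand: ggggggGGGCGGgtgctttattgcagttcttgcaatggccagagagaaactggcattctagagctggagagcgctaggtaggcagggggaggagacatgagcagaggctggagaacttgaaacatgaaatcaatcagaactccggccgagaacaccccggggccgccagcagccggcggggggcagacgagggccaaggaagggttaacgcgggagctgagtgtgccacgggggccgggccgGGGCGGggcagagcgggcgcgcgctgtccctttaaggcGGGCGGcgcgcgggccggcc
The window held 3 GC boxes and no TCF/LEF core.

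Other genes of the pathway were taken from 7 lists outside the rule. Of their 86 genes in the files 69 were tested, 32 of them higher in NSCs, 29 higher in STO cells and 8 not past the test, shares near the background of 43.7% and 41.9%. With a log2 difference of at least 1, 21 (30.4%, against 21.3% of all genes) were higher in NSCs and 15 (21.7%, against 17.1%) in STO cells, and the median absolute difference was 1.01 against 0.74 for all genes. The limit set by the filter on the sizes of the members holds for these genes too.

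All 6 genes listed under ligand maturation and release were higher in STO cells (41.9% of all genes), 3 of them by at least 1 (17.1% of all genes). The list also holds Notum and Trabd2b, which act against Wnt proteins and were both among these 3. Wls, the carrier that takes Wnt proteins to the cell surface, was at 13.8 and 14.2 FPKM in NSCs and at 99.6, 93.1 and 102 in STO cells (difference -2.73, adjusted p 6.8e-08). Notum, a secreted enzyme that removes the lipid of Wnt proteins, was at 0.142 and 0.403 FPKM against 8.21, 6.76 and 7.20 (difference -2.73), and Trabd2b, a protease that cleaves Wnt proteins, was listed at 0 in NSCs and at 4.77 to 5.04 in STO cells. NSCs thus had the higher sum of ligands and STO cells the higher level of their carrier. Porcn, the enzyme that adds the lipid, was at 9.23 and 8.44 FPKM against 12.9 to 14.1 (difference -0.57, adjusted p 0.00020).

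The ligands of the R-spondin group raise the level of Frizzled at the surface through Lgr receptors. Of its 4 tested genes 2 were higher in NSCs (43.7% of all genes) and 2 in STO cells (41.9% of all genes). Lgr4 was at 2.05 and 2.30 FPKM in NSCs and at 16.3 to 19.2 in STO cells (difference -2.58), and Rspo2 was listed at 0 in NSCs and at 0.973 to 1.16 in STO cells (difference -1.05). Lgr5, itself known as a target gene, went the other way, at 1.35 and 1.25 FPKM against 0 to 0.019 (difference 1.19, or 0.42 with quantile normalization). Znrf3, which removes Frizzled from the surface, was at 5.80 and 5.04 against 2.74 to 3.80 (difference 0.57, adjusted p 0.0042).

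Of 9 other surface components tested, 6 were higher in STO cells (41.9% of all genes) and 3 in NSCs (43.7% of all genes). Adgra2 and Reck, which together form the co-receptor for Wnt7a and Wnt7b, were at 0.755 and 0.810 against 58.7 to 62.1 FPKM (difference -5.10, adjusted p 5.3e-09) and at 0.911 and 0.799 against 5.27 to 5.68 FPKM (difference -1.79, adjusted p 4.5e-07). The pair was thus high in the cell type in which Wnt7a and Wnt7b were near 0. Ndp, which encodes Norrin, was at 10.3 and 9.94 FPKM and Tspan12, a partner of Fzd4 in Norrin signalling, at 42.6 and 40.7 FPKM in NSCs, and both were listed at 0 in all STO samples. Fzd4 itself was higher in STO cells, as given above.

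The pseudokinase receptor Ryk was at 28.1 and 28.5 FPKM in NSCs and at 75.9 to 81.3 in STO cells (difference -1.45), Gpc4 at 7.06 and 6.77 against 27.9 to 33.1 (-2.02) and Apcdd1, a membrane inhibitor, at 5.18 and 5.73 against 19.1 to 22.9 (-1.77). Kremen1, a receptor of Dkk proteins, was at 13.5 and 13.7 FPKM in NSCs and at 5.14 to 5.33 in STO cells (difference 1.22).

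The beta-catenin destruction complex and Dishevelled group held 19 tested genes. Of these, 9 were higher in NSCs (43.7% of all genes), 6 in STO cells (41.9% of all genes) and 4 did not pass. A log2 difference of at least 1 was also passed by 5 (26.3%, against 38.4% of all genes). Ctnnb1, the gene of beta-catenin, was at 255 and 262 FPKM in NSCs and at 238, 235 and 241 in STO cells (difference 0.12, adjusted p 0.086). The scaffold Axin1 was at 14.5 and 14.7 FPKM in NSCs and at 42.6 to 43.8 in STO cells (difference -1.50, adjusted p 3.9e-07), opposite to Axin2. Apc was at 34.0 and 40.0 FPKM against 10.1 to 11.2 (difference 1.69) and Apc2 at 13.7 and 14.5 against 1.11 to 1.45 (difference 2.71), both higher in NSCs. Dvl3 (33.1 and 36.3 against 14.6 to 15.3 FPKM, difference 1.16) and Frat1 (3.9 and 4 against 0.252 to 0.305 FPKM, difference 1.95) were also higher in NSCs.

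Of 13 nuclear co-factors, 4 were higher in NSCs (43.7% of all genes), 6 in STO cells (41.9% of all genes) and 3 did not pass. Tcf7l1, a mostly repressive TCF factor, was at 3.57 and 3.56 FPKM in NSCs and at 15.2 to 16.9 in STO cells (difference -1.90, adjusted p 4.1e-07), and Tcf7l2 at 5.44 and 5.13 against 6.79 to 8.88 (difference -0.50, adjusted p 0.0042). Tcf7l1 and Tcf7l2 were therefore at higher levels than Tcf7 and Lef1 in both cell types. The co-repressor Tle4 was at 24.6 and 26.0 FPKM against 3.36 to 3.97 (difference 2.52), Cby1 at 52.4 and 52.7 against 12.6 to 15.7 (1.82) and Nlk at 18.6 and 18.9 against 7.6 to 9 (1.10), while Bcl9l was at 12 and 13 against 27.1 to 30.4 (-1.14, or -0.73 with the highest transcript alone).

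All 8 tested genes of the target and feedback list were higher in NSCs (43.7% of all genes), 6 of them by at least 1 (21.3% of all genes). Nkd1, a feedback inhibitor, was at 10.4 and 12.1 FPKM in NSCs and listed at 0 in STO cells (difference 3.61), and Tnfrsf19 was at 22.9 and 23.6 against 0.011, 0 and 0 (difference 4.59). The cyclins Ccnd1 and Ccnd2, which many other signals also raise, were at 677 and 650 against 120 to 126 FPKM (difference 2.42) and at 418 and 403 against 23.7 to 29.5 FPKM (difference 3.88). Dact1, a Dishevelled antagonist, was at 20.8 and 24.4 FPKM against 0.939 to 1.10 (difference 3.54), and Dact2 at 0.974 and 1.07 against 0, 0.014 and 0 (difference 1.01, or 0.31 with quantile normalization). The list holds 14 genes, and the 6 not tested included Sp5 (0.576 and 0.747 against 0 in all STO samples) and Bambi (0.543 and 0.680 against 0.814 to 0.906). It does not hold every feedback gene, and genes outside it that act against the signal went both ways. Among them, Notum (difference -2.73) and Apcdd1 (-1.77) were higher in STO cells, and Axin2 (2.31) and Znrf3 (0.57) in NSCs.

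Planar polarity is the branch that orients cells in a sheet. Of its 10 tested genes, 6 were higher in NSCs (43.7% of all genes) and 3 in STO cells (41.9% of all genes). Invs was not past the test. Celsr2 was at 12.4 FPKM in both NSC samples and at 0.013, 0 and 0.0056 in STO cells (difference 3.73), and Vangl2 at 19.5 and 16.9 against 5.07 to 6.14 (difference 1.53). Its relative Vangl1 was at 4.44 and 4.68 against 10.3 to 11.5 (difference -1.10) and Prickle1 at 1.45 and 1.32 against 6.65 to 7.08 (difference -1.72), both higher in STO cells. Celsr3 (difference 1.01) and Daam1 (difference 1.05) were also called towards NSCs, but not under every alternative. With quantile normalization the difference of Celsr3 was 0.07 (adjusted p 0.27, against 5.7e-07 to 6.4e-05 under its other alternatives), and with the highest transcript alone that of Daam1 was 0.05 (adjusted p 0.48, against 4.4e-06 to 0.0018).

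**Figure D5:**
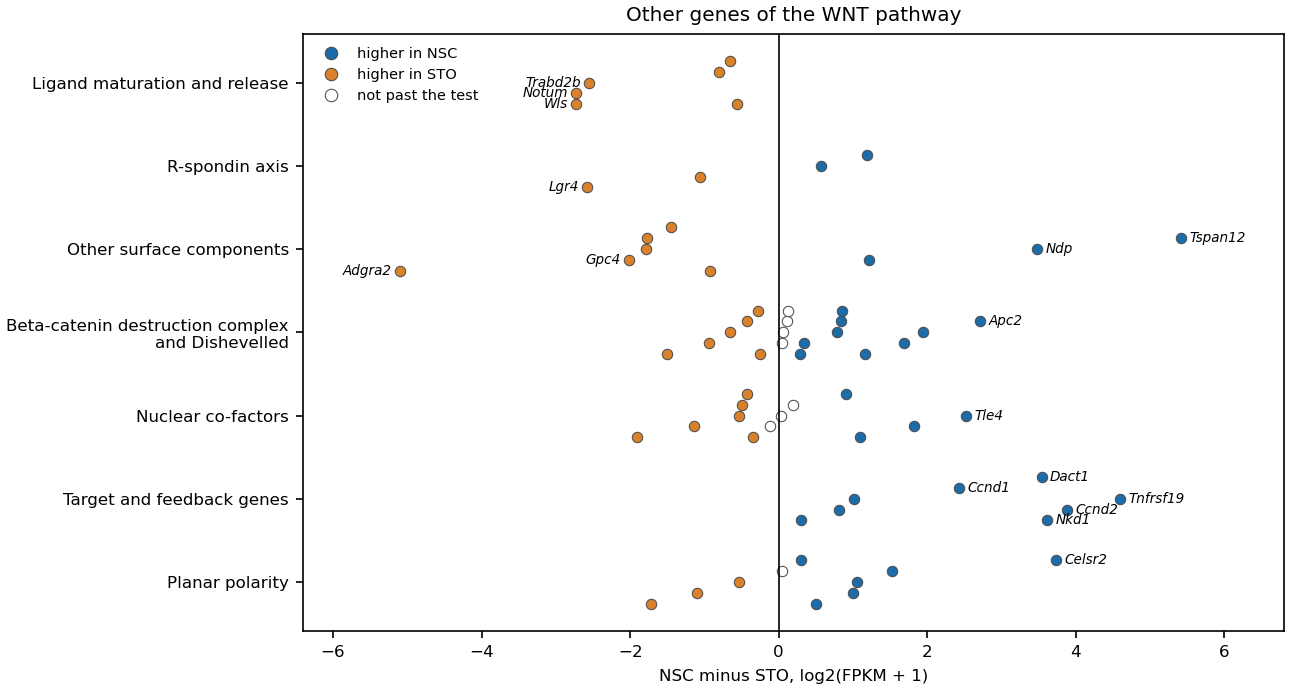
Difference of the 69 tested pathway genes outside the rule, NSC minus STO in log2(FPKM + 1), 1 point per gene in 7 lists, blue and orange for genes past the test and open for those not past it. All points of the ligand maturation and release list, Notum and Trabd2b among them, lie below 0. All points of the target list lie above 0, while the other 5 lists hold points on both sides.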

How the data were processed

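Total RNA of 2 NSC and 3 STO samples was made into stranded mRNA libraries and read as paired ends. The authors aligned reads to mm9 with Hisat2 and deposited FPKM values with intervals from Cufflinks 2.2.1 for 40201 RefSeq transcripts per sample, so depth was divided out by the authors. Symbols were taken by identifier from a RefSeq table of GRCm38.p6, used for names only (39946 matched), and FPKM was summed per symbol. Gpr124 is listed as Adgra2.

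Groups came from the labels. Groups were compared by limma (version 3.58.1, R 4.3.3), with a trended eBayes fit and two-sided p-values, on log2(FPKM + 1). Genes entered if the mean of either group reached 1 FPKM. The method was tested on simulated data, where 93 of 100 genes changed by a log2 of 1 and 99 of 100 changed by 2 were recovered. There 9 other genes of 12278 were called. Far fewer genes changed there than were called here, so the simulation cannot speak for these data. Implied fragments take the deposited upper bound as 2 SD of a Poisson count. Coordinates are the deposited ones, made 1-based, and windows were read from the mm9 genome with GENCODE vM1. Of the 56 member windows, 34 matched the RefSeq promoter table, and 7206 of 40201 records had no placed start.

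Named genes were all members past the filter, other members with a sample at 0.1 FPKM or more, and pathway genes past the test with a log2 difference of at least 1; others are named by count or role after their values were seen. A few items are not reported here. Members and lists were chosen with earlier results of these data known. Alternatives changed the pseudocount, filter, normalization, trend, replicate block, transcript sum and samples. Python 3.11.15, numpy 2.4.6, pandas 2.3.3 and matplotlib 3.10.9 were used.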

Additional observations from a re-analysis of the deposited data

How the results depend on the processing

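Direction and call were the same under every alternative run for 24 of the 28 tested members. With a mean FPKM of at least 5 required, 19 members were tested, 8 of them higher in NSCs and 10 in STO cells. Of the 9956 genes then tested, 4247 were higher in NSCs and 4316 in STO cells, so the members were near the background. With a log2 difference of at least 1 required, 13 members were higher in NSCs (21.3% of all genes) and 8 in STO cells (17.1% of all genes). Of the other pathway genes 21 were then higher in NSCs and 15 in STO cells. Leaving out each STO sample in turn gave 14 members higher in NSCs and 13 in STO cells each time. Of the other pathway genes 31 to 32 and 29 were called, and of all genes 5188 to 5247 and 4970 to 5060. Without either NSC replicate a lone NSC sample remained, assumed to vary like the STO samples. Those fits say little of the spread among NSCs, and their counts are left out. The size of low genes followed the scale: with a pseudocount of 0.1 the difference of Dkk3 was 3.63, and with quantile normalization 0.41. Tcf7 turned to -0.26 with quantile normalization, and Fzd1, not called, ranged from -0.17 to 0.044 as each sample was left out and was above 0 without NSC replicate 1. With the highest transcript alone, the differences of Wnt5a (-0.02), Fzd5 (-0.44) and Daam1 (0.05) lost their calls. The causes were not tested.

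Replicates 1 and 2 share numbers across the cell types, but nothing in the labels pairs them. Deviations of samples with the same number correlated at 0.0029 and 0.064, and of samples with different numbers from -0.064 to 0.059. With 2 NSC samples the deviations of NSC replicate 2 are those of replicate 1 with the sign turned. The 2 sets of correlations are therefore not independent and cannot show or exclude a pairing. With the replicate number as a block, 14 members were higher in NSCs and 13 in STO cells, 32 and 29 of the other pathway genes, and 5250 and 4988 of all genes, against 5370 and 5147 without it. STO replicate 3 has no partner in that fit. Depth limits the values under about 0.1 FPKM, which rest on few fragments, and 2 NSC samples leave their spread poorly known.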
